A study of Mus musculus with 12 samples.

Results

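Genes across the whole array were compared between mouse embryonic stem cells (mESC) labelled Tbx3-high, 4 samples, and mESC labelled Tbx3-low, 4 samples. These are 8 of the 12 samples of a series on Tbx3 in the pluripotency network, and each was hybridised to 1 one-colour Agilent array. The arrays were chosen by their labels, which give the cell type and the Tbx3 phenotype. The labels used here give no strain, line, sex, culture medium, treatment or passage, do not say how cells with a high and a low Tbx3 level were separated, and leave unsaid whether replicates come from separate cultures. The p-values therefore measure a spread between samples that may be technical. That spread was not taken from these samples alone. The fit pooled it with that of the series' Tbx3-null and wild-type induced pluripotent stem cells, whose arrays lay on another slide. All 8 mESC arrays lay on 1 slide. On it, slide columns 1 and 2 held the Tbx3-low samples and columns 3 and 4 the Tbx3-high samples, so that group and column cannot be told apart.

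Tbx3 encodes a T-box transcription factor that takes part in the network holding mouse embryonic stem cells in the naive state, the ground state that resembles the epiblast before implantation. In that network LIF acts through STAT3, and factors such as Klf4, Esrrb, Tfcp2l1 and Nanog hold each other active, while FGF signalling through ERK drives exit toward the formative and primed epiblast marked by Fgf5 and Otx2. Naive cultures are mixed, and single cells move between states of high and low levels of several of these factors.

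A level is given here as log2 of the processed signal minus the 75th percentile of the same array, so 0 is the 75th percentile of the probes and each unit is a doubling. Levels of different probes cannot be set against each other. A difference is the mean level of the Tbx3-high arrays minus that of the Tbx3-low arrays, given with its standard error (SE) from limma and n = 4 arrays per group. A gene rose or fell when limma's p-value, adjusted over all genes tested by the Benjamini-Hochberg method, was under 0.05. The 75th percentile of the raw signals lay between 314 and 458, from 55.9% to 64.8% of spots were well above background, and 0 spots were saturated. The first principal component held 65.4% of the variance and separated the groups. The second held 12.9% and separated the slide rows, replicates 1 and 2 from replicates 3 and 4.

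The 4 genes that mark these cells differed between the groups on every array. The arrays measured RNA of whole samples, in which fewer cells of a type and less RNA per cell cannot be told apart. Tbx3 itself lay at 5.75, 5.76, 5.73 and 5.72 on the Tbx3-low arrays and at 7.05, 7.07, 7.12 and 7.03 on the Tbx3-high arrays. The groups did not overlap, and the gap of 1.33 ± 0.07 (SE, adjusted p = 1.9e-07) was far wider than the spread within a group. The Tbx3-low cells were thus not without signal for Tbx3: its probe was well above background on each of their arrays. Klf4, a zinc finger factor that helps hold the naive state, lay at 4.63, 4.71, 4.78 and 4.79 on the Tbx3-low arrays and at 5.40, 5.47, 5.51 and 5.59 on the Tbx3-high arrays, a difference of 0.76 ± 0.08 (SE, adjusted p = 2.7e-05). Fgf5, a growth factor of the epiblast after implantation, lay at -2.27, -2.32, -1.65 and -2.14 on the Tbx3-low arrays and was not well above background on any Tbx3-high array. Its fall was at least 7.18-fold (adjusted p = 4.2e-07). Such a bound, used wherever 1 group was dim, takes the dim probe on each array as no lower than the weakest signal that still counted as well above background on that array. It holds for the main processing only: across the alternatives listed at the end the Fgf5 difference was as small as -1.21, against -2.84 at the bound. Dppa3, known as Stella and a protector of maternal DNA from demethylation, went the opposite way from Klf4. It lay at 2.83, 2.65, 2.89 and 2.84 on the Tbx3-low arrays and at -0.45, -0.51, -0.19 and -0.48 on the Tbx3-high arrays, a difference of -3.21 ± 0.08 (SE, adjusted p = 9.8e-10).

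**Figure D1:**
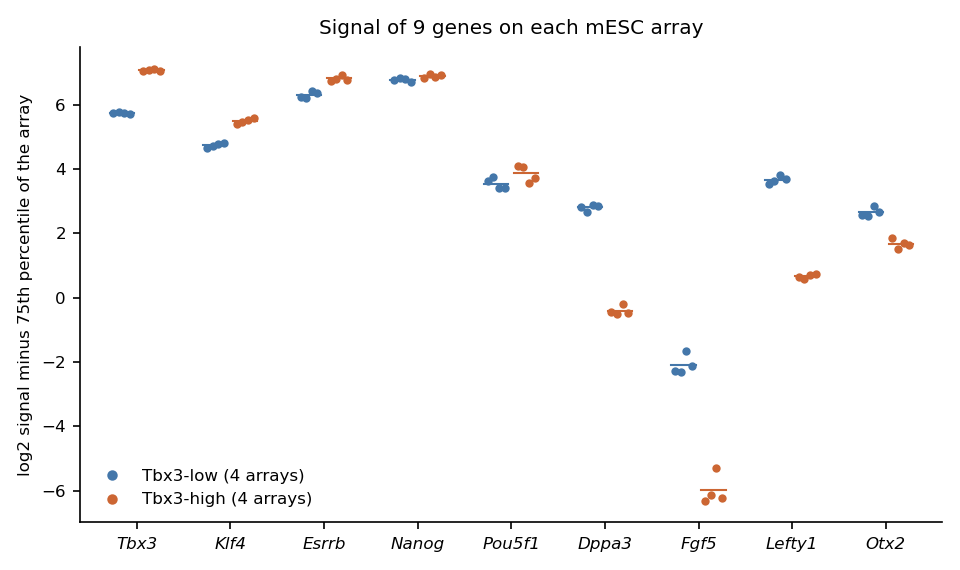
Level of 9 genes on each of the 8 mESC arrays, as log2 signal minus the 75th percentile of the array; each point is 1 array and each bar the mean of 4. Tbx3, Klf4 and Esrrb are higher on all Tbx3-high arrays, Dppa3, Fgf5, Lefty1 and Otx2 are lower, and the groups overlap for Nanog and Pou5f1; levels of different genes cannot be compared.

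Of 24020 genes with a probe, 15874 reached well above background on all 4 arrays of a group, or of both groups, and were tested. Of these, 5490 passed (34.6%), 3087 higher in the Tbx3-high cells (19.4%) and 2403 lower (15.1%). For 5638 genes (35.5%) the values of the 4 high and the 4 low arrays did not overlap. Most of the called differences were small: 3081 of the 5490, or 56.1%, were under 0.5 on the log2 scale, and the median size of a called difference was 0.45. The median SD within a group was 0.117 in the Tbx3-low and 0.119 in the Tbx3-high arrays. Changes of at least 2-fold were found for 732 genes (4.61%), 304 higher (1.92%) and 428 lower (2.7%), and the groups did not overlap for 710 of them. The tail was longer on the lower side. Differences of 3 or more were fitted for 24 genes that fell and 1 that rose, and differences between 2 and 3 for 62 and 24. The median difference over all genes was 0.04. Centring each array on its median in place of its 75th percentile moved it to -0.00 and turned the split to 1884 higher and 2232 lower, so the balance of small changes rests on the scaling, whereas the count of at least 2-fold changes was 733. That count was 263 with normexp background correction and 310 with the deposited series table. Of the 317 called genes below background on at least 1 array, the difference was over 1.5 times smaller for 314 with normexp and 313 with the series table, against 1195 and 974 of the other 5173, so sizes given for dim genes depend on the processing. Within slide row 1 alone 4171 genes passed and within row 2 alone 3539, and the Tbx3 difference was 1.31 and 1.35.

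**Figure D2:**
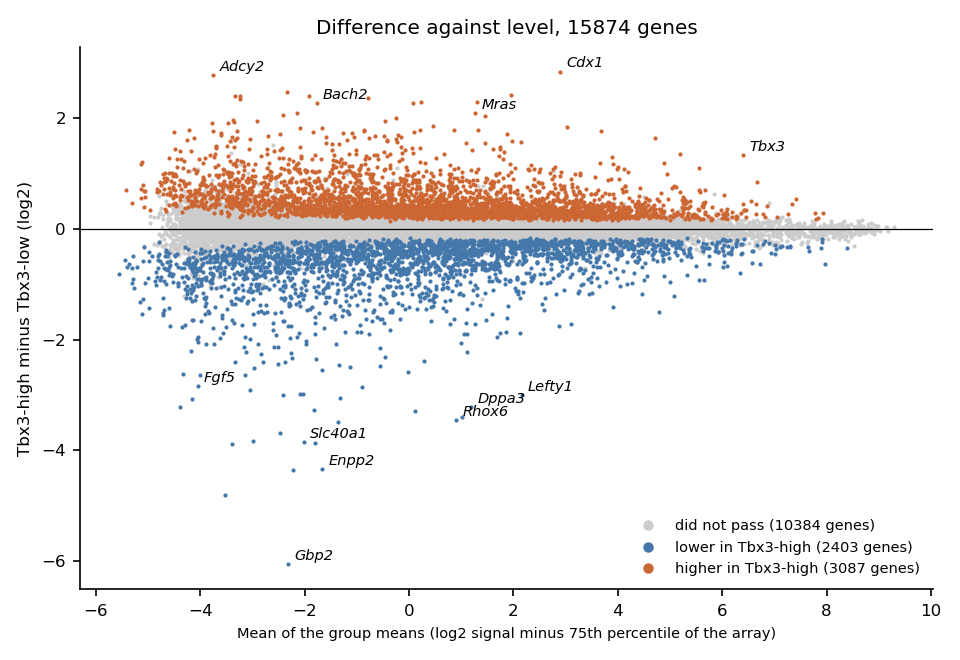
Tbx3-high minus Tbx3-low difference (log2) against the mean of both group levels for the 15874 genes tested; each point is 1 gene, coloured by the limma call, and for a gene below background on any array the levels under the weakest signal well above background are raised to it, so that Bmp2 lies at 1.76. Falls reach further than rises: Gbp2 lies lowest, Cdx1 and Adcy2 highest.

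Among the 30 largest rises with groups that do not overlap were genes of signalling and of secretory and transport functions. Mras, a RAS-family GTPase, lay between 0.11 and 0.34 on the Tbx3-low arrays and between 2.17 and 2.43 on the Tbx3-high arrays, a rise of 2.09 ± 0.10. Bach2, a transcriptional repressor best known from lymphocytes, rose by 2.27 ± 0.12 and Mcc, named for a mutation in colorectal cancer, by 2.27 ± 0.08. Ppp1r14d, a protein phosphatase 1 inhibitor subunit, rose by 2.30 ± 0.09 and the guanine nucleotide exchange factor Arhgef26 by 2.09 ± 0.07. Cpe, the carboxypeptidase that trims peptide hormones, rose by 2.04 ± 0.07 and the tachykinin precursor Tac2 by 2.07 ± 0.12. The betaine transporter Slc6a12 rose by 1.93 ± 0.15, and 3 of the 4 Tbx3-low arrays measured it above background. Genes named from blood and vessel cells were in the same group, with the guidance receptor Robo4 at 1.96 ± 0.08, the myeloid receptor Trem2 at 1.99 ± 0.24 and the T cell receptor chain Cd3d at 1.97 ± 0.12. Trem2 was above background on 2 and Cd3d on 3 of the Tbx3-low arrays, and with normexp they were at 0.56 and 0.72. Cdh5, a defining endothelial marker, was below background on every array, and of 4 other blood and endothelial markers tested 2 rose and 1 fell. The other rises included the homeobox gene Nkx6-3 (1.83 ± 0.10), the secreted matrix protein Crtac1 (1.94 ± 0.11), the apoptosis regulator Xaf1 (1.79 ± 0.11) and the little characterised genes Gm13889 (2.41 ± 0.09), 2310065F04Rik (2.02 ± 0.17) and Accsl (1.79 ± 0.10).

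The 30 largest falls included X-linked and homeobox genes. Rhox6, an X-linked reproductive homeobox gene, lay at 2.65, 2.60, 2.62 and 2.64 on the Tbx3-low arrays and at -0.85, -0.80, -0.88 and -0.76 on the Tbx3-high arrays. It was the gene with the smallest spread within groups relative to its change, followed by Tbx3 and by Nrsn1, a neuronal vesicle membrane protein gene that fell from between 0.43 and 0.64 to between -2.36 and -2.26. Of 16 Rhox genes tested 7 fell and 0 rose (43.8% called against 34.6% of all genes). A gene dim in 1 group enters the test only through the other. Of the 13 Rhox genes well above background on all 8 arrays, 4 fell and the median was -0.12. Rhox4a was at -2.52 ± 0.52 and above background on 1 Tbx3-high array, and Rhox4g was dim there and at least 3.32-fold lower. Rhox probes can bind transcripts of related Rhox genes. The X-linked kinase gene Nrk fell by 3.0 ± 0.13, and Gm9, an X-linked predicted gene, fell by 3.04 ± 0.07. The double homeobox gene Duxbl2 lay between 1.24 and 1.31 on the Tbx3-low arrays and between -1.56 and -1.16 on the Tbx3-high arrays. The galectin Lgals9 was at -3.28 ± 0.13, the LIM-domain protein Fhl2 at -2.98 ± 0.16, the RAB GTPase activator Tbc1d9 at -2.98 ± 0.11 and the vitamin C transporter Slc23a1 at -2.72 ± 0.20. The serine protease Tmprss4 was at least 6.26-fold lower and dim on all Tbx3-high arrays. The uncharacterised 2610037D02Rik (-3.87 ± 0.16) and Gm9564 (-3.48 ± 0.14) also fell.

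Naive pluripotency genes rose as a group and core pluripotency genes did not. Of 27 naive genes tested 17 rose and 3 fell, with a median difference of 0.50 against 0.04 over all genes. Tfcp2l1, a naive factor downstream of STAT3, lay at 4.48, 4.24, 4.55 and 4.48 and then at 5.24, 5.33, 5.53 and 5.62, a rise of 1.0 ± 0.12. Esrrb, an orphan nuclear receptor, rose by 0.50 ± 0.07, the nuclear receptor Nr0b1 by 0.65 ± 0.09, the liver receptor homologue Nr5a2 by 0.56 ± 0.07 and Klf5 by 0.45 ± 0.07. Among the largest rises of the list were Mras, Jam2 (1.64 ± 0.09), the actin nucleator Cobl (1.31 ± 0.07) and the homeobox gene Gbx2 (1.10 ± 0.10). Tbx3 labels the groups, so its own rise says nothing about the naive genes. The falls included Dppa3 and the growth factor Fgf4 (-0.35 ± 0.07). Klf2 was at 0.07 (adjusted p = 0.51), Tcl1 at 0.07 (0.60) and Tcea3 at -0.11 (0.29). Of 20 core genes 2 rose and 3 fell (25% called against 34.6% of all genes), with a median of 0.04. The zinc finger factor Zfp296 rose by 0.38 ± 0.08, while Mycn, a MYC family factor, fell by 1.0 ± 0.11 and the telomere-associated Rif1 by 0.41 ± 0.08. Nanog lay between 6.70 and 6.82 and then between 6.82 and 6.95, with a difference of 0.12 (adjusted p = 0.14) on its brightest probe and 0.31 (adjusted p = 0.00402) as the mean of its probes, and Pou5f1, the gene of OCT4, was at 0.31 (0.13), or adjusted p = 0.0205 with the replicate number as a block.

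Genes of the formative and primed epiblast fell more often than they rose, but not as a block. Of 29 tested, 17 fell and 7 rose, with a median of -0.36, and 10 of the falls against 1 of the rises were at least 2-fold. Otx2, the homeobox factor of the formative state, lay at 2.56, 2.53, 2.84 and 2.67 and then at 1.85, 1.52, 1.71 and 1.65. Besides Fgf5 and Lefty1, the helix-loop-helix gene Hes6 fell by 1.88 ± 0.08, the zinc finger factors Zic2 by 1.15 ± 0.15 and Zic5 by 0.97 ± 0.11, and the Wnt effector Lef1 by 1.10 ± 0.11. Against these, the forkhead factor Foxd3 rose by 0.88 ± 0.11, the ETS factor Etv4 by 1.13 ± 0.17 and Sox4 by 0.50 ± 0.09. The methyltransferases of this stage split: Dnmt3b fell by 0.35 ± 0.08 and its partner Dnmt3l rose by 0.35 ± 0.08, a call that was lost with arrays centred on the median (adjusted p = 0.0501).

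**Figure D3:**
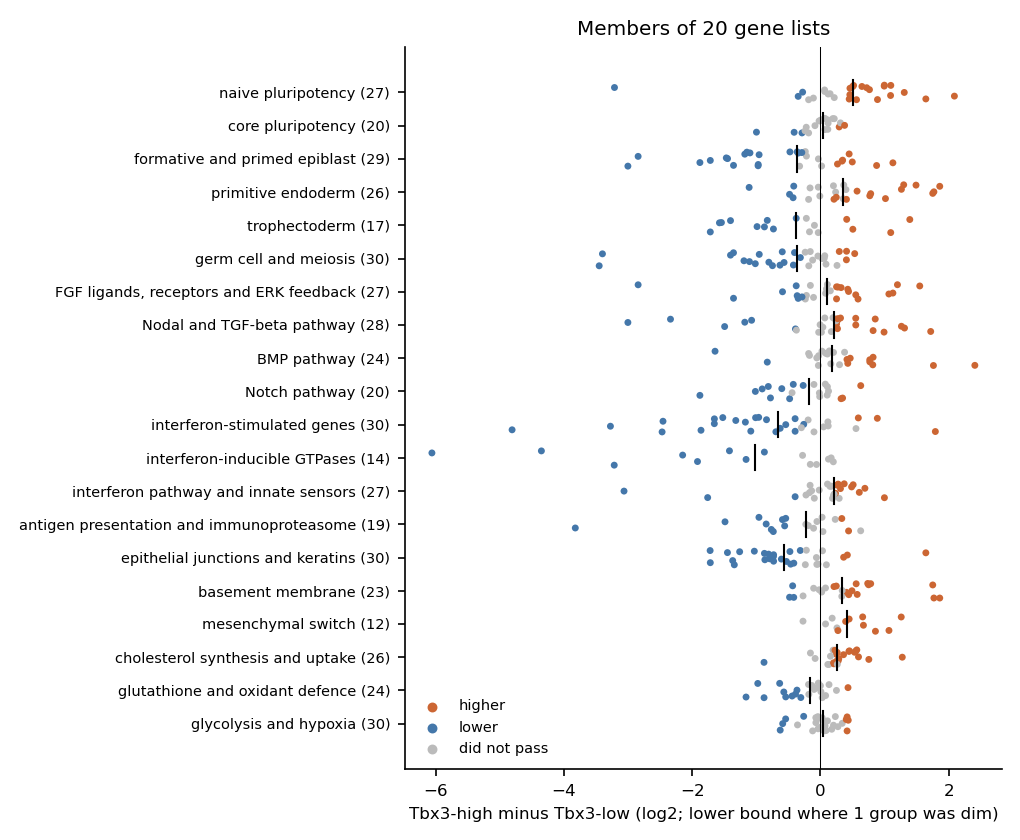
Tbx3-high minus Tbx3-low difference (log2) of each tested member of 20 gene lists; each point is 1 gene, coloured by its call, the black bar is the list's median, the number in brackets is the number of members tested, and levels under the weakest signal well above background are raised to it. The medians of the naive, matrix, cholesterol and interferon pathway and sensor lists lie to the right of 0. Those of the interferon-stimulated, interferon-inducible GTPase, antigen presentation, epithelial, germ cell and epiblast lists lie to the left.

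In the LIF and STAT3 list receptor genes and feedback genes each moved both ways. Of 23 genes tested 6 rose and 6 fell, with a median of 0.15. Il6ra, a receptor subunit for interleukin 6 and not for LIF, rose by 1.42 ± 0.12. It lay between -0.92 and -0.59 on the Tbx3-low arrays and between 0.33 and 0.90 on the Tbx3-high arrays. The shared signal-transducing subunit Il6st fell by 0.73 ± 0.08. Stat3 itself was at 0.21 ± 0.06 on its brightest probe, which passed, but at -0.02 (adjusted p = 0.883) as the mean of its probes. Among the feedback inhibitors Socs3 rose by 0.78 ± 0.10, while Cish fell by 0.63 ± 0.08 and Socs2 by 0.66 ± 0.07. Of the other Socs2 probes those at -0.67 and -0.60 passed and that at 0.07 did not. The kinase gene Pim1 fell by 1.08 ± 0.21.

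Of 27 FGF ligands, receptors and feedback genes 12 rose and 7 fell, with a median of 0.11. The ligands divided: Fgf5 and Fgf15 (-1.36 ± 0.07) fell with Fgf4, while Fgf10 rose by 1.20 ± 0.09 and Fgf17 by 0.43 ± 0.07. Of the receptors Fgfr2 fell by 0.38 ± 0.10 but did not pass with normexp background, and Fgfr1 was at 0.08 (adjusted p = 0.38). Among the targets and feedback inhibitors of ERK the rises included Etv1 at 1.55 ± 0.07, Etv4 at 1.13 ± 0.17, Spry2 at 1.07 ± 0.12, Spry4 at 0.55 ± 0.08 and Egr1 at 0.59 ± 0.12. Among those that fell were Etv5 at -0.36 ± 0.08 and the ERK phosphatase Dusp4 at -0.59 ± 0.12. Among all dual-specificity phosphatases, 9 of 21 fell and 6 rose (71.4% called), with Dusp26 (-1.32), Dusp8 (-1.28), Dusp2 (-1.16), Dusp3 (-1.01) and the X-linked Dusp9 (-0.79) against Dusp10 (1.02). With normexp background Dusp10 did not pass (adjusted p = 0.0848).

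Nodal and TGF-beta genes moved in both directions. Of 28 tested 13 rose and 6 fell, with a median of 0.22, and 5 of the 6 falls were at least 2-fold. These included the Nodal inhibitor Lefty1, which lay between 3.53 and 3.82 on the Tbx3-low and between 0.58 and 0.72 on the Tbx3-high arrays, its relative Lefty2 (-1.18 ± 0.08), the SMAD corepressor Skil (-1.07 ± 0.10) and the co-receptor Cfc1 (-2.34 ± 0.21). The ligand Nodal (0.27 ± 0.06), its co-receptor Tdgf1 (0.25 ± 0.05) and the type I receptor Acvr1b (0.55 ± 0.08) rose, the first 2 only slightly and not with arrays centred on the median (adjusted p = 0.116 and 0.0625). The activin subunit Inhbb rose by 1.72 ± 0.13, its antagonist Fst by 1.26 ± 0.09 and the TGF-beta receptor Tgfbr2 by 1.31 ± 0.18. The effector Smad2 was at -0.00 (adjusted p = 0.97).

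BMP genes mostly rose where they changed: of 24 tested 9 rose and 2 fell, with a median of 0.18. The targets Id1 (0.82 ± 0.13), Id3 (0.77 ± 0.08), Id4 (0.77 ± 0.11) and Smad7 (0.82 ± 0.12) rose together with the receptor Acvr1 (0.46 ± 0.06). The ligand Bmp2 and the homeobox target Tlx2 rose too, but Bmp2 was above background on 1 and Tlx2 on 2 of the Tbx3-low arrays, and the size depended on the processing. Bmp2 was fitted at 2.86 ± 0.50 and lay between 0.61 and 4.01 over the 19 alternatives that tested it, and passed in each. Tlx2 was fitted at 2.41 ± 0.18 and lay between 0.97 and 2.52. The effector Smad1 (0.43 ± 0.12) and the ligand Bmp7 (0.41 ± 0.10) rose too, but not with arrays centred on the median (adjusted p = 0.0707 and 0.0525). Id2 went against them and lay between 2.18 and 2.38 on the Tbx3-low and between 0.58 and 0.72 on the Tbx3-high arrays. Bmp8b also fell (-0.83 ± 0.07), and Bmp4 was at 0.20 (adjusted p = 0.19).

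Wnt genes had no common direction, with 10 of 34 higher, 10 lower and a median of 0.01. Ligands fell (Wnt7b by 2.13 ± 0.20, Wnt8a by 1.88 ± 0.21, Wnt4 by 0.83 ± 0.19) or rose (Wnt6 by 0.70 ± 0.12, Wnt5b by 0.41 ± 0.08). Wnt4 did not pass with normexp background or within slide row 1 alone. The receptors Fzd10 (1.07 ± 0.08) and Fzd5 (1.03 ± 0.09) and the secreted antagonist Sfrp1 (1.0 ± 0.12) rose, and Fzd2 (-0.68 ± 0.15) and Lgr4 (-0.56 ± 0.10) fell. The feedback target Axin2 rose by 0.46 ± 0.10.

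Notch genes leaned the other way: of 20 tested 9 fell and 3 rose, with a median of -0.18. The falls covered ligands, with Dll1 at -1.01 ± 0.12, Jag2 at -0.91 ± 0.07, Dll3 at -0.81 ± 0.07 and Jag1 at -0.78 ± 0.07, and the modifier gene Dtx1 (-0.48 ± 0.07). The target Hes1 rose by 0.63 ± 0.17 with overlapping groups, Hey1 fell by 0.42 ± 0.11, and Notch1 was at 0.11 (adjusted p = 0.82).

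Cyclic AMP signalling, whose cyclases make the messenger that activates protein kinase A and the exchange factor Rapgef3, had members far out on both sides. Of 27 tested 10 rose and 6 fell, with a median of 0.12. Of the 8 adenylyl cyclases tested 4 rose and 3 fell (87.5% called against 34.6% of all genes). Only 4 were well above background on all 8 arrays, and the others entered the test through 1 group. Of those 4, 1 rose and 2 fell, with a median of -0.32. Adcy2 was dim in the Tbx3-low cells and at least 6.87-fold higher in the Tbx3-high cells, and Adcy1 (1.15 ± 0.17) and Adcy9 (0.57 ± 0.07) also rose, whereas Adcy5 (-1.24 ± 0.16), Adcy7 (-1.04 ± 0.12) and Adcy6 (-0.58 ± 0.15) fell; with the replicate number as a block Adcy6 did not pass (adjusted p = 0.0537). The phosphodiesterases Pde8a (1.03 ± 0.11) and Pde4d (0.86 ± 0.10) rose, and the regulatory subunit Prkar2b fell by 1.05 ± 0.08.

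In the Hedgehog list 5 of 13 rose and 3 fell, with the effector Gli2 at 1.46 ± 0.09 and the target Gli1 at -0.51 ± 0.08. The Hippo and the PI3K and mTOR lists had 36.4% and 38.5% of their genes called, close to the 34.6% of all genes. In the Hippo list 3 of 22 rose and 5 fell, with the kinase Lats2 at 1.06 ± 0.12 against the X-linked scaffold Amot at -1.13 ± 0.10 and the targets Ccn1 (-0.48 ± 0.09) and Ccn2 (-0.51 ± 0.08). In the retinoic acid list 3 of 18 rose and 7 fell, with the synthetic enzymes Aldh1a3 at 1.71 ± 0.15 and Aldh1a2 at -0.87 ± 0.12 and the binding protein Crabp2 at -1.12 ± 0.10. In the PI3K and mTOR list 6 of 26 rose and 4 fell, with Pik3r3 at 1.10 ± 0.10, Igf1r at 0.71 ± 0.10 and Akt1 at -0.55 ± 0.06. Of 31 axon guidance genes 9 rose and 7 fell, with Epha4 at 1.65 ± 0.09 and Ntn1 at 1.16 ± 0.09 against Sema3e (-2.07 ± 0.17, above background on 1 Tbx3-high array) and Efnb2 (-1.23 ± 0.06).

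Lineage genes went both ways. Of 26 primitive endoderm genes 13 rose and 4 fell, with a median of 0.36. Next to the factors Gata6 (1.49 ± 0.13), Hnf4a (0.77 ± 0.09) and Sox17 (0.57 ± 0.15), the risers included its matrix genes Col4a1, Col4a2, Nid1 and Lama1, while Gata4 was at 0.36 (adjusted p = 0.072), with adjusted p = 0.0206 under the replicate block, 0.0242 without Tbx3-low replicate 4 and 0.0311 without Tbx3-high replicate 2. Foxa2 was at 0.40 (adjusted p = 0.12) and Sox7 at -0.16 (0.47). The fallers were the endocytic receptor gene Lrp2 (-1.11 ± 0.11), the laminin chain Lamb1, the parathyroid hormone receptor gene Pth1r (-0.43 ± 0.12) and thrombomodulin Thbd, which was dim in the Tbx3-high cells and at least 1.40-fold lower. Pth1r did not pass without Tbx3-high replicate 1 (adjusted p = 0.057), with normexp background or within slide row 2 alone. Thbd did not pass in 9 of 19 alternatives, where its adjusted p reached 0.299, and its difference was as small as -0.12, so its bound holds for the main processing only. These included the replicate block (adjusted p = 0.0639), the absence of Tbx3-low replicate 2, 3 or 4 (0.0649, 0.0744 and 0.077), normexp background, no filter and the mESC arrays alone. The 10 primitive endoderm markers, of which 4 rose and 0 fell and which hold none of these fallers, summed to between 3.26 and 3.62 on the Tbx3-low arrays and between 4.14 and 5.40 on the Tbx3-high arrays, in units of the 75th percentile signal. Of 17 trophectoderm genes 9 fell and 4 rose, with a median of -0.38: Gata3 at -1.57 ± 0.08 and Tfap2c at -1.40 ± 0.08 against Eomes at 1.39 ± 0.10 and Tfap2a at 1.10 ± 0.16. The 7 trophoblast markers, 5 of them tested and all 5 lower, of which Elf5 was below background on every array, summed to between 43.7 and 46.4 on the Tbx3-low and between 15.3 and 17.9 on the Tbx3-high arrays. The list holds Krt7, Krt8 and Krt18, keratins that other epithelia share. Whether other cell types had a part in these changes was not tested. Of 30 germ cell and meiosis genes 16 fell and 4 rose, with a median of -0.36. The piRNA pathway genes Tdrd12 (-1.19 ± 0.06) and Tdrd7 (-1.11 ± 0.08), the cohesin Smc1b (-1.02 ± 0.10) and the sex-determination factor Dmrt1 (-1.36 ± 0.08) fell, Dazl rose by 0.53 ± 0.11, and Ddx4 was at -0.18 (adjusted p = 0.15, or 0.046 under the replicate block). Of 14 genes of the primitive streak and mesendoderm 4 rose and 2 fell (42.9% called against 34.6% of all genes), with a median of 0.24. That median was 0.17 with dim genes at their bound. It was 0.09 over the 11 genes well above background on all 8 arrays, against 0.04 over all genes. The caudal homeobox gene Cdx1 lay between 1.28 and 1.66 and then between 4.23 and 4.36, a rise of 2.84 ± 0.10, the organizer gene Gsc rose by 0.53 ± 0.10 and Hand1, a factor of heart and trophoblast, fell by 1.54 ± 0.27. The 4 mesendoderm markers summed to between 0.758 and 0.861 on the Tbx3-low and between 1.37 and 1.86 on the Tbx3-high arrays. Of 14 genes of the 2-cell-like state 1 rose and 2 fell (21.4% called). Of 11 other T-box genes tested Eomes rose and 2 fell (27.3% called), Tbx4 by 1.66 ± 0.18 and Tbx1 by 0.52 ± 0.12. Both shares were under the 34.6% of all genes. The 8 pluripotent cell markers summed to between 457 and 551 on the Tbx3-low arrays and between 457 and 543 on the Tbx3-high arrays, ranges that overlap.

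Interferon-induced genes, the antiviral and cell-autonomous defence genes that interferons switch on through STAT factors and IRF factors binding the response element in their promoters, fell more often than they rose. Of 30 interferon-stimulated genes tested 20 fell and 3 rose, with a median of -0.67, and 12 falls were at least 2-fold. The median was -0.47 over the 26 of them well above background on all 8 arrays. Of 14 interferon-inducible GTPases tested, of 19 listed, 8 fell, all at least 2-fold by the fit, and 0 rose, with a median of -1.47, or -1.02 with dim genes at their bound. Of the 8 GTPases well above background on all 8 arrays, 2 fell and the median was -0.11, since a gene dim in 1 group enters the test only through the other. Of 27 genes of the sensing and signalling machinery, by contrast, 10 rose and 3 fell, with a median of 0.20.

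Short stretches of the promoters of GTPase genes that fell are shown because each carries the interferon response element, GAAA followed by any 2 bases and GAAA, searched on both strands. They come from RefSeq (GRCm38.p6), run 5′ to 3′ on the gene's strand and lie wholly upstream of the annotated start; capitals mark 1 element in each, which reads as its reverse complement where it lies on the other strand. The stretches are chr3:142620579-142620638 (plus strand) for Gbp2, chr3:142559974-142560033 (plus) for Gbp3, chr3:142530258-142530317 (plus) for Gbp7, chr11:48871421-48871475 (minus) for Irgm1 and chr11:58199497-58199555 (plus) for Igtp. That of the chemokine gene Cxcl10, chr5:92349068-92349127 (minus), is added from the interferon-stimulated list. Gbp3 and Irgm1 each hold 2 matches that overlap, and the second is left in lower case.
Gbp2: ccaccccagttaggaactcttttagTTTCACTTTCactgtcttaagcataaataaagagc
Gbp3: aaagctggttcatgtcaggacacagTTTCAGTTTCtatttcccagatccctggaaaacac
Gbp7: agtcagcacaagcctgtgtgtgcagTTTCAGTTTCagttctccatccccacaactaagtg
Irgm1: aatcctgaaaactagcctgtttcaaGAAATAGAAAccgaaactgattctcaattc
Igtp: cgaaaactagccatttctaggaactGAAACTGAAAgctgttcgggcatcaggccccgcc
Cxcl10: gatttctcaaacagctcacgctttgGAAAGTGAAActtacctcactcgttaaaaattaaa

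Gbp2, a guanylate-binding GTPase, lay at 0.84, 0.99, 1.34 and 1.32 on the Tbx3-low arrays and was dim on every Tbx3-high array, a fall of at least 66.7-fold (adjusted p = 1.0e-08). Its neighbours Gbp3 and Gbp7 were at least 9.29-fold and 2.67-fold lower. These bounds hold for the main processing only. Across the alternatives the differences were as small as -3.64 for Gbp2, -1.54 for Gbp3 and -0.47 for Gbp7. Gbp probes can bind transcripts of related Gbp genes. Irgm1, an immunity-related GTPase, lay at -0.24, -0.16, 0.17 and 0.04 and then at -4.26, -4.80, -3.85 and -4.68, while Igtp fell by 2.15 ± 0.18 and Irgm2 by 1.92 ± 0.19. Not every GTPase fell: Gbp5 was at 0.13 (adjusted p = 0.32), Gbp6 at 0.20 (0.72) and Ifi47 at -0.28 (0.39, or 0.0218 under the replicate block). The antiviral gene Rsad2 was at least 2.50-fold lower, the nucleic acid sensor Zbp1 fell by 2.46 ± 0.12 and Cxcl10 by 2.47 ± 0.13. The ADP-ribosyltransferases Parp14 (-1.86 ± 0.14), Parp9 (-1.65 ± 0.09) and Parp12 (-0.96 ± 0.13), the Parp9 partner Dtx3l (-1.65 ± 0.11) and the ubiquitin-like modifier Isg15 (-1.01 ± 0.14) also fell.

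Upstream, the transcription factor Irf1 lay at 3.68, 3.60, 3.91 and 3.86 on the Tbx3-low and at 2.06, 1.82, 2.11 and 2.02 on the Tbx3-high arrays, a fall of 1.76 ± 0.09. Stat2 was at -0.02 (adjusted p = 0.85), the receptor subunits Ifnar1 at -0.16 (0.18) and Ifngr1 at -0.23 (0.15), and the kinase Jak1 at 0.21 (0.12). The receptor subunit Ifnar2 rose by 0.61 ± 0.07, Irf8 by 1.0 ± 0.11, Irf5 by 0.69 ± 0.08 and the adaptor Sting1 by 0.49 ± 0.08. Some effectors also rose or did not pass, with Xaf1 between -1.80 and -1.69 on the Tbx3-low and between -0.07 and 0.09 on the Tbx3-high arrays, Samd9l at 0.89 ± 0.08, the double-stranded RNA kinase Eif2ak2 at 0.12 (adjusted p = 0.39) and Oas2 at -0.10 (0.36). Antigen processing genes fell with the effectors in 9 of 19 cases and rose in 2, with a median of -0.23: the peptide transporter Tap1 by 0.73 ± 0.09, the loading factor Tapbp by 0.85 ± 0.07 and the proteasome subunits Psmb10 by 0.96 ± 0.07 and Psmb9 by 0.56 ± 0.08. The third such subunit, Psmb8, was at -4.23 ± 0.37 and above background on 2 Tbx3-high arrays. Cd274, the gene of the T cell inhibitor PD-L1, was dim in the Tbx3-high cells and at least 8.36-fold lower. The class I heavy chain H2-K1 (-0.19, adjusted p = 0.22) and its light chain B2m (-0.23, 0.099) did not pass; under the replicate block B2m had an adjusted p of 0.0478. The tripartite motif genes Trim12a (-2.55), Trim21 (-1.44) and Trim34a (-0.65) fell, among 12 falls and 7 rises of 45 in that family (42.2% called against 34.6% of all genes). The cytokine Il33 was dim in the Tbx3-high cells and at least 1.47-fold lower, but did not pass with normexp background (adjusted p = 0.0567).

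**Figure D4:**
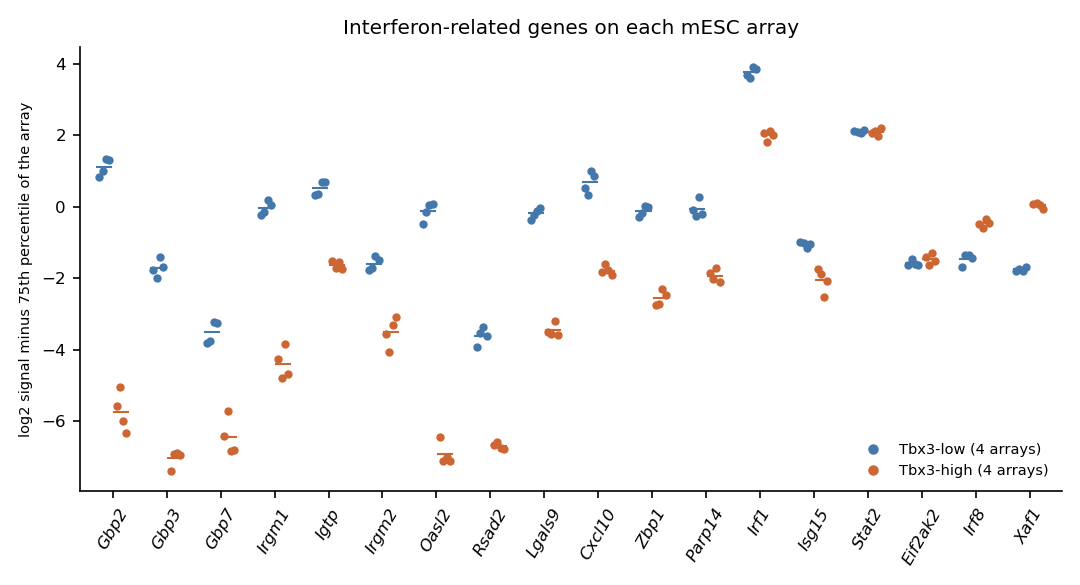
Level of 18 interferon-related genes on each mESC array, as log2 signal minus the 75th percentile of the array; each point is 1 array and each bar the mean of 4. The groups are apart for the GTPases and for Oasl2, Rsad2, Lgals9, Cxcl10, Zbp1, Parp14, Irf1 and Isg15, overlap for Stat2 and Eif2ak2, and are apart in the other direction for Irf8 and Xaf1; levels of different genes cannot be compared.

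The response element was searched in the 300-base promoter window (250 bases before to 50 after the start). It was found in 12 of 19 interferon and antigen presentation genes that were at least 2-fold lower. Among other tested members of those lists it was found in 12 of 53. These pooled shares depend on the make-up of the lists. For lower against other genes they were 7 of 7 against 1 of 2 GTPases and 4 of 8 against 6 of 16 interferon-stimulated genes. The element was in 0 of 2 against 2 of 20 sensing and signalling genes and 1 of 2 against 3 of 15 antigen presentation genes. Over all genes it was in 8.85% of the 305 windows of genes at least 2-fold lower, 5.50% of the 218 of genes at least 2-fold higher and 3.46% of the 11971 of genes tested. For the motif AGGTGTGA, a T-box recognition sequence, the shares were 1.97%, 0.459% and 1.24%. The ETS motif CCGGAAGT was in 1.97% and 2.75% of the windows of lower and higher genes and 7.94% of all tested. The estrogen-related receptor motif TCAAGGTCA was in 0%, 1.38% and 0.359%, and the STAT motif TTCNNNGAA in 11.5%, 5.96% and 8.23%. Both strands were searched, and a match shows only that the letters are there.

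Epithelial genes fell and basement membrane and mesenchymal genes rose. Of 30 junction and keratin genes tested 20 fell and 3 rose, with a median of -0.57, and 7 falls were at least 2-fold. Esrp1, the splicing regulator of epithelial cells, lay at 1.91, 2.06, 2.21 and 2.31 on the Tbx3-low and at 0.48, 0.24, 0.49 and 0.41 on the Tbx3-high arrays. P-cadherin Cdh3 fell by 1.45 ± 0.09, the claudins Cldn3 by 1.34 ± 0.09, Cldn4 by 1.26 ± 0.30 and Cldn6 by 0.79 ± 0.15, and desmoplakin Dsp by 0.73 ± 0.10. E-cadherin Cdh1 was an exception at -0.06 (adjusted p = 0.57), as were the tight junction scaffold Tjp1 at 0.03 (0.81) and the desmosomal Dsg2, which rose by 0.42 ± 0.11. Across the keratin family 12 of 24 fell and 1 rose.

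Of 12 genes of the mesenchymal switch 8 rose and 0 fell, with a median of 0.42. The repressor Zeb1 lay between -0.90 and -0.56 on the Tbx3-low and between 0.26 and 0.65 on the Tbx3-high arrays. Snai2 rose by 1.07 ± 0.11, Snai1 by 0.66 ± 0.12, fibronectin Fn1 by 0.86 ± 0.09 and N-cadherin Cdh2 by 0.45 ± 0.11. Of 23 basement membrane genes 13 rose and 3 fell, with a median of 0.34. Nidogen Nid1, the linker of laminin and collagen networks, lay between 2.65 and 2.90 and then between 4.48 and 4.64, the collagen IV chain Col4a1 rose by 1.86 ± 0.10 and its partner chain Col4a2 by 1.75 ± 0.14, the laminin chain Lama1 by 0.78 ± 0.09 and agrin Agrn by 0.49 ± 0.05. The laminin chain Lamb1 fell by 0.42 ± 0.09. Integrins rose in 9 of 22 cases and fell in 3, with Itga8 at 1.32 and Itga9 at 1.16. Of 15 fibroblast (feeder) markers 11 were tested, 5 rose and 1 fell, and their summed signal lay between 85.2 and 89.5 on the Tbx3-low and between 133 and 169 on the Tbx3-high arrays. Fn1 is in that sum, Col1a1 rose by 1.54 ± 0.10, Pdgfra by 1.30 ± 0.15 from 1 Tbx3-low array above background, and the smooth muscle gene Tagln fell by 1.36 ± 0.11, while the fibroblast genes Lum and Postn were below background on every array. Whether feeder cells had a part in the rise of the mesenchymal genes was not tested.

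Among metabolic groups the cholesterol genes rose most often. Of 26 tested 17 rose and 1 fell, with a median of 0.26 and a largest rise of 1.28 ± 0.09 for the sterol exporter Abca1, which lay between -1.49 and -1.21 and then between -0.32 and -0.01. The synthesis enzymes changed little each: Tm7sf2 by 0.75 ± 0.12, Nsdhl by 0.59 ± 0.10, Pmvk by 0.57 ± 0.11, Msmo1 by 0.55 ± 0.08, Cyp51 by 0.53 ± 0.09 and Dhcr7 by 0.44 ± 0.09. The master regulator Srebf2 was at 0.26 (adjusted p = 0.077), or 0.37 (adjusted p = 0.00487) without Tbx3-high replicate 3. Fatty acid genes rose in 10 of 27 cases and fell in 3, with the desaturases Scd1 at 0.84 ± 0.10 and Scd2 at 0.66 ± 0.08, the carnitine palmitoyltransferase Cpt1a at 1.06 ± 0.10 and the ligase Acsl4 at -0.76 ± 0.08.

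Glutathione and oxidant defence genes fell in 10 of 24 cases and rose in 1, with a median of -0.16. Gpx4, the peroxidase that repairs lipid peroxides, lay at 6.94, 7.05, 7.04 and 7.13 and then at 6.48, 6.32, 6.39 and 6.43. The glutathione synthesis subunit Gclm fell by 0.88 ± 0.07, the transferase Gstp1 by 0.57 ± 0.08 and glutathione reductase Gsr by 0.54 ± 0.11. Nfe2l2, the factor that induces many of these genes, was at 0.00 (adjusted p = 1.0). Of 17 iron genes 5 fell and 2 rose, with the exporter Slc40a1 at -3.85 ± 0.15, the transferrin receptor Tfrc at -0.47 ± 0.08 and transferrin Trf at 1.44 ± 0.11. Of 30 glycolysis and hypoxia genes 4 rose and 4 fell, 26.7% called against 34.6% of all genes, with the same median of 0.04 as all genes, and Gapdh was at 0.04 (adjusted p = 0.84). Of 99 cytosolic ribosomal protein genes 4 rose and 4 fell, or 8.08% called against 34.6% of all genes. The mitochondrial ribosomal family had 10 rises and 2 falls of 78, or 15.4% called. Of 16 cytochrome c oxidase genes 7 rose and 0 fell, with a median of 0.14.

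At least 2-fold changes numbered 0 of 30 Polycomb and Trithorax genes, 1 of 26 remodelling complex genes and 1 of 36 cell cycle genes. In lists of this size such counts lie near the 4.61% of all genes. Of the Polycomb and Trithorax genes 8 rose and 8 fell (53.3% called against 34.6% of all genes). The Polycomb reader Cbx8 (0.50 ± 0.11) rose, and the accessory subunit Phf19 (-0.82 ± 0.11) and the core subunit Suz12 (-0.35 ± 0.07) fell. In the remodelling complexes, with 34.6% called as among all genes, the BAF subunit Smarcd3 rose by 1.43 ± 0.08. Of 36 cell cycle genes 11 rose and 6 fell (47.2% called). The inhibitors Cdkn1c (-1.13 ± 0.18), Cdkn2b (-0.99 ± 0.08) and Cdkn2a (-0.94 ± 0.08) fell, the inhibitor Cdkn1b rose by 0.44 ± 0.09, and the proliferation marker Mki67 was at 0.14 (adjusted p = 0.15).

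The chromosomes differed in how their genes moved, and the X chromosome stood apart. Of 587 X-linked genes tested 234 fell (39.9%) and 58 rose (9.88%), against 2152 of 15139 autosomal genes that fell (14.2%) and 3011 that rose (19.9%). The median difference was -0.16 on the X and 0.05 on the autosomes. The median deviation of X-linked genes from each gene's own mean over the 8 arrays was 0.10, 0.08, 0.12 and 0.11 on the Tbx3-low arrays and -0.09, -0.11, -0.10 and -0.10 on the Tbx3-high arrays, so the groups did not overlap. The shift was seen at every expression level, with medians between -0.20 and -0.13 in 4 classes of mean level. Without the Rhox, Xlr and Mage families, which hold genes silent in most tissues, the X median was -0.17.

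The shift was not spread along the X. The genes were cut into blocks of 30 or 31 in their order along the chromosome, a description added after the chromosome medians were seen. From Nudt11 to Utp14a (positions 5631752 to 45628326 on the X, mm9), 80 of 155 genes fell and 4 rose, with a median of -0.28. From Bcorl1 to Hmgn5 (45759430 to 106200129), 46 of 248 fell and 47 rose, with a median of 0.02. From Sh3bgrl to the last X gene tested (106357210 to 165807959), 108 of 184 fell and 7 rose, with a median of -0.31. The ends of these stretches were set after the block medians were seen. Within slide rows 1 and 2 alone the medians were -0.26 and -0.31 in the proximal, 0.02 and 0.01 in the middle and -0.30 and -0.38 in the distal stretch. Of 19 X blocks 9 had a median under the lowest of 495 autosomal blocks, which was -0.20. With blocks of 20 genes 6 of 29 X blocks were under the lowest autosomal block, at -0.35, and with blocks of 40 genes 7 of 14, at -0.16.

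Widely expressed genes show the contrast. In the proximal stretch the cullin Cul4b fell by 0.97 ± 0.10, the cohesin subunit Stag2 by 0.46 ± 0.10, the deacetylase Hdac6 by 0.40 ± 0.06 and the RNA helicase Ddx3x by 0.33 ± 0.06, while Usp9x was at -0.02 (adjusted p = 0.88) and Xiap at 0.06 (0.61). In the middle stretch Hprt was at 0.11 (adjusted p = 0.24), G6pdx at -0.14 (0.24), Atrx at 0.03 (0.75) and Ogt at -0.08 (0.46). In the distal stretch Prps1 fell by 0.83 ± 0.07, the histone chaperone Rbbp7 by 0.44 ± 0.07, the ubiquitin ligase Huwe1 by 0.41 ± 0.07 and the pyruvate dehydrogenase subunit Pdha1 by 0.31 ± 0.08, while Kdm5c was at -0.09 (0.47). These genes were chosen after their values were seen. The lowest block, from Armcx1 to Tmsb15l, held the Armcx, Bex and Tceal families, and 27 of its 31 genes fell, among them Armcx2 (-0.98), Tceal1 (-0.99), Gprasp1 (-0.59) and Bex2 (-0.57). Probes of these families can bind transcripts of their relatives.

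Larger single falls also lay in the middle stretch, with Fndc3c1 at -3.68 and Rlim, the ubiquitin ligase that activates Xist, at -0.94 ± 0.10. Xist, the RNA that coats the inactive X, lay at -2.62, -2.33, -3.10 and -3.65 on the Tbx3-low arrays and at -2.52, -2.38, -3.46 and -2.70 on the Tbx3-high arrays, a difference of 0.16 ± 0.31 (adjusted p = 0.73). Its antisense partner Tsix rose by 0.56 ± 0.15 (adjusted p = 0.013) on its brightest probe but did not pass as the mean of its probes (adjusted p = 0.0803). Of the other Tsix probes that at 0.56 passed, and those at 0.46 and 0.05 did not. The Y-linked Ddx3y was well above background on all 8 arrays and rose by 0.37 ± 0.07, Eif2s3y was at 0.16 (adjusted p = 0.098) and Uty at -0.06 (0.87).

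**Figure D5:**
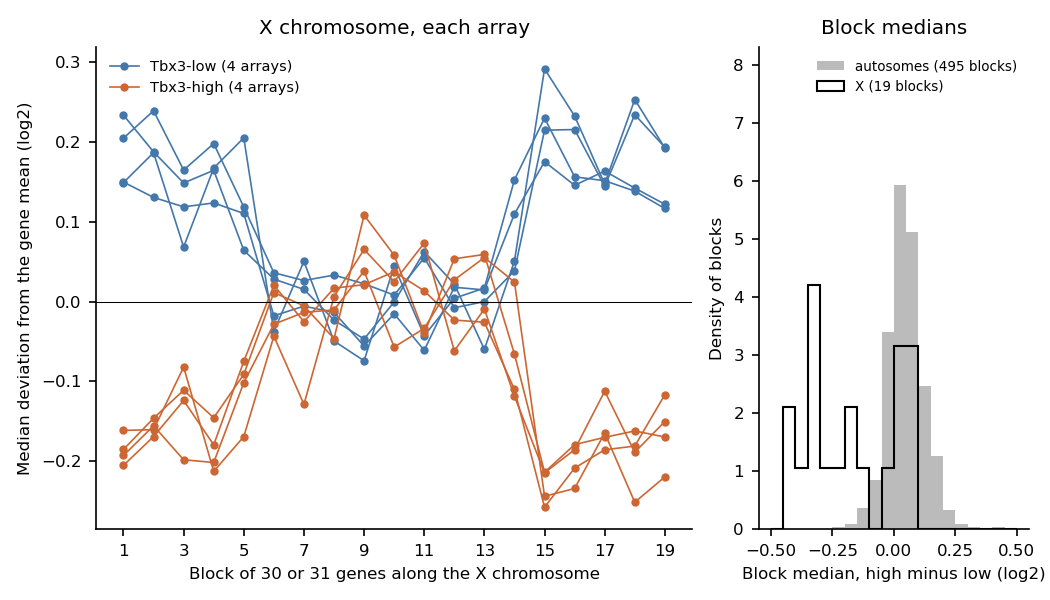
Left, median deviation (log2) of the genes in 19 blocks along the X chromosome on each mESC array from each gene's mean over the 8 arrays; each line is 1 array. Right, density of the block medians of the Tbx3-high minus Tbx3-low difference for 495 autosomal and 19 X blocks; the arrays are apart in blocks 1 to 5 and 14 to 19 and mixed in blocks 6 to 13.

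The 2 highest block medians of the autosomes were neighbours on chromosome 10, and the block before them was the fifth highest. From Amd2 to A130019P10Rik (40007295 to 60903823, mm9), 49 of 90 genes rose and 7 fell, with a median of 0.34. The median was 0.29 and 0.36 within slide rows 1 and 2 alone, but 0.22 with normexp background and 0.21 with the series table. The 3 blocks of this stretch had medians of 0.24, 0.32 and 0.42. The rises were mostly modest, with Sesn1 at 0.87, Pdss2 at 0.84, Fig4 at 0.62 and Foxo3 at 0.61, and reached 1.27 for the nucleoside transporter Slc29a3, 1.20 for Septin10 and 1.13 for Sobp. Prdm1 (-0.80) and Cd24a (-0.42) fell inside it. Cd24a had one of the 5 smallest spreads relative to its change, at 1.0, 1.0, 0.99 and 0.98 and then 0.57, 0.56, 0.57 and 0.59.

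Shorter runs of at least 3 neighbouring genes, all at least 2-fold changed in 1 direction and with probes no more than 500 kb apart, were found at 11 places. Downward runs were Gbp7, Gbp3 and Gbp2 on chromosome 3, the interferon-induced Ifi27 (-1.52) and Ifi27l2a (-2.40) with Ppp4r4 (-1.52) on chromosome 12, the homeobox genes Cphx1 (-1.70), Duxbl1 (-2.13) and Duxbl2 on chromosome 14, and Setd7 (-1.70), 5031434O11Rik (-1.83) and Mgst2 (-1.48) on chromosome 3. Others were F630201L12Rik, Dok2 (-1.90) and 2410012E07Rik on chromosome 14 and Cpeb1 (-1.16), Ap3b2 (-1.96) and BC048679 on chromosome 7. Upward runs included the betaine and glycine methyl metabolism genes Bhmt (1.45), Bhmt2 (1.47) and Dmgdh (1.66) on chromosome 13 and Slc6a7 (1.60), Cdx1 and Pdgfrb (1.83) on chromosome 18. Others were Zfp57 (1.09), H2-M5 (1.57) and 2410137M14Rik (1.35) on chromosome 17 and Chst3 (1.12), Psap (1.42) and Slc29a3 on chromosome 10. Psap had overlapping groups (SE 0.42, adjusted p = 0.021) and did not pass without Tbx3-low replicate 3 or 4 or Tbx3-high replicate 1 or 2, where it was at 1.19, 1.26, 1.17 and 1.19, but was at 1.55 and 1.30 within the slide rows. Neighbours with similar sequence, as in the Gbp, Bhmt and Duxbl runs, can share probe signal.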

How the data were processed

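RNA of each sample (50 ng) was labelled in 1 colour with Agilent's Low Input Quick Amp kit, per the labels' protocols. The deposited scanner files hold spot intensities from Agilent Feature Extraction 10.7.3.1 with probe positions on mm9, per the file headers; the processed signal is background-subtracted there and not scaled between arrays. A series table of log2 values was also deposited and served as an alternative; how the authors scaled it is not stated in the labels.

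Control spots and outlier spots were left out, spots of a probe were averaged and log2(processed signal) was centred on the 75th percentile of each array. Of the probes, 27737 were named by accession, 3391 by symbol and 301 by synonym through the RefSeq table (GRCm38.p6), 1746 kept the file's name and 22505 were not named. For each gene the brightest probe, by mean over the 12 arrays, was kept. One limma 3.58.1 model (R 4.3.3) with 4 group means was fitted to all 12 arrays, with eBayes and Benjamini-Hochberg adjustment over the 15874 genes tested. With the mESC arrays fitted alone 5444 genes passed. The script was tested on simulated data.

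The genes and lists were chosen with earlier results of these data known. Genes were named by rule: the 4 markers, the 30 largest rises and falls without overlap, list members changed most or covering the list's core, runs of neighbours, and the 5 smallest spreads. Names on the X and chromosome 10 were chosen after seeing values. Positions on chromosomes used 15730 genes whose probe lay on the chromosome RefSeq gives. Some genes are not reported here.

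Replicate numbers come from the labels. Deviations of same-numbered arrays from their group means correlated at 0.14, 0.24, 0.17 and 0.11, so the numbers were taken as pairs for a blocked alternative; arrays of 1 slide row, which share these numbers, correlated likewise (0.03 to 0.34). Alternatives were other scaling, background correction, filter, probe choice, samples, blocks, each slide row alone and each array left out.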

Additional observations from a re-analysis of the deposited data

Results flagged for a closer look

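In 30 of 726 groups of 4 arrays checked for named genes, 1 array lay apart from the other 3 by more than 0.829 of the group's range; chance flags about 1 group in 20. All values are log2 levels relative to the array's 75th percentile. Most of these gaps were small because the other 3 arrays lay very close together.

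Among Tbx3-low arrays, replicate 4 was apart for Rhox4a (-1.07), Dusp26 (-1.32), Gli1 (2.12), Epha4 (-1.48) and Gata4 (-1.12). Replicate 3 was apart for Tbc1d9 (-0.26), Egr1 (2.59), Abca1 (-1.22), Amd2 (5.83) and Uty (-1.43). Replicate 1 was apart for the X-linked Huwe1 (4.80) and Kdm5c (3.82), for Lrp2 (1.04) and for Itga8 (-3.98), and replicate 2 for Tfap2a (-3.60).

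Among Tbx3-high arrays, replicate 1 was apart for Rlim (-0.33), Zic5 (-0.50), Gbp3 (-7.40), Trim34a (-0.90), Oasl2 (-6.45) and Ifi27l2a (-4.94). Replicate 2 was apart for Lefty2 (2.08), Smad7 (3.61) and Psmb10 (3.39). Replicate 3 was apart for Rhox4a (-6.40), Cish (-0.015) and Dhcr7 (2.14), and replicate 4 for Dusp8 (-4.24), Tagln (0.94) and BC048679 (-1.48).

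The widest gap was that of Rhox4a, whose other Tbx3-low arrays lay between -3.44 and -3.21; the group difference was -2.52. BC048679 had the next widest gap, its other Tbx3-high arrays lying between -3.22 and -3.07. For Gbp3 and Oasl2 the flagged array lay below background, where order carries no information.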

How the results depend on the processing

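Tbx3 passed under all 20 alternatives, between 1.25 and 1.35. Of 320 named genes that passed, 284 did so in every alternative that tested them. Genes below background on an array were not tested where signal on all 8 arrays was required. Most of the losses came with slide row 1 alone (13) and row 2 alone (26), which leave 2 arrays per group. Stat3 turned to -0.020 as the mean of its probes; the cause was not tested. Of 98 other probes of named genes that passed, 84 passed in the same direction, 14 did not pass and 0 passed in the opposite direction. In slide row 2 alone 3539 genes passed, 1812 of them higher; with arrays centred on the median 1884 were higher. At least 2-fold changes numbered 263 with normexp background and 310 with the series table. The X minus autosomal median of -0.21 was -0.15 with normexp background, -0.16 with the series table, -0.12 with no filter and -0.25 in row 2 alone; the causes were not tested. Leaving out 1 array gave 4741 to 5015 genes passed, 2528 to 2887 higher, 2059 to 2339 lower, 691 to 765 of at least 2-fold, Tbx3 at 1.31 to 1.34 and the X shift at -0.22 to -0.20. Blocking on the slide row gave 6652 genes passed and blocking on the replicate number 5714; under the replicate block Pou5f1, Adcy6, Gata4, Thbd, Ddx4, Ifi47 and B2m changed side, as given beside them, and Amd2 (adjusted p = 0.0431) and A130019P10Rik (0.00913), the ends of the chromosome 10 stretch, passed; the other named genes kept their side. Blocks of 20 and 40 genes, added after seeing the data, put 15 of 29 and 7 of 14 X blocks and 12 of 750 and 1 of 372 autosomal blocks under -0.15. Signal near background limits the dim genes, whose fold changes are lower bounds under the main processing only, and 4 arrays per group limit the precision.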

Other observations

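Imprinted genes, which are read from 1 parental allele, moved in both directions. Of 28 tested, 9 were lower in the Tbx3-high cells and 4 higher by limma with Benjamini-Hochberg adjustment, with a median of -0.06. The untranslated RNA H19 lay at -3.29 ± 0.27 (SE, n = 4 arrays per group), the zinc finger gene Peg3 at -0.81 ± 0.14 and its neighbour Usp29 at -1.34 ± 0.13, the placental growth regulator Phlda2 at -1.06 ± 0.18 and Peg10 at -0.63 ± 0.13. Higher were the zinc finger gene Plagl1 (1.20 ± 0.11) and the thyroid hormone deiodinase Dio3 (1.02 ± 0.15). Of 21 genes of DNA methylation and demethylation 6 were higher and 4 lower. Zfp57, which keeps methylation at imprinted regions, lay at 1.09 ± 0.12, and the dioxygenase Tet2 at 0.89 ± 0.10.

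Among 26 immediate early and heat shock genes 8 were lower and 4 higher, with a median of -0.14. The stress-induced Gadd45g lay at -1.88 ± 0.08 and Klf6 at -0.71 ± 0.06, whereas Fos lay at 0.44 ± 0.09 and Egr1 at 0.59 ± 0.12, so members of this list that are induced together in many settings stood on both sides. Of 24 targets of p53 4 were higher and 5 lower (37.5% called against 34.6% of all genes), with a median of -0.01, and the largest were Sesn1 (0.87 ± 0.11) and Perp (-0.82 ± 0.08). Of 18 neuroectoderm genes 8 were higher and 5 lower: the factor Sox1 lay at 1.32 ± 0.08 and the neurofilament Nefm at 0.83 ± 0.07, against nestin Nes at -1.45 ± 0.11 and the filament protein Ina at -1.39 ± 0.07. Neural markers summed to between 6.15 and 6.57 on the Tbx3-low and between 4.60 and 5.56 on the Tbx3-high arrays, in units of the 75th percentile signal, with Pax6 below background on every array. Of 14 S100 proteins 4 were lower and 0 higher, with S100a6 at -1.03 ± 0.12. That is 28.6% called, fewer than the 34.6% of all genes, and the family's median was -0.02.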
